A study of Mus musculus with 80 samples.

Results

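The transcripts of the mouse liver 1 h after an intravenous injection of 105 kBq 211At were compared with those of mock-treated livers. Astatine-211 is a radiohalogen that emits alpha particles, which deposit their energy within a few cell diameters. Free astatine is taken up mainly by the thyroid, so the liver is an organ outside the main target. The exposed group held 2 mice and the control group 3, which together are 5 of the 80 arrays of the series. They were chosen by activity, time and tissue in the sample titles, and no measured value entered that choice. The 16 liver arrays also held 3 mice at 1 h after 1.7 kBq, 3 at 6 h after 1.7 kBq, 2 at 6 h after 7.5 kBq and 3 at 7 d after 1.7 kBq.

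The animals were adult females of a BALB/c nude strain, CAnN.Cg-Foxn1nu/Crl. They carry the Foxn1 nude mutation and lack a normal thymus and most T cells. The exposed mice received 211At in physiological saline through the tail vein and were killed 1 h later. The control mice were mock-treated with phosphate-buffered saline and killed after 24 h. Exposure, injected solution and time after injection therefore differ together between the groups and cannot be told apart, and the time of day of killing is not given in the sources used here. In whole liver, fewer cells of a type and less RNA per cell cannot be told apart either.

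The liver keeps blood glucose and lipids within bounds, and much of its transcription follows daily rhythms. In the molecular clock, CLOCK and ARNTL (BMAL1) bind E-boxes and drive the genes for their own inhibitors, the PER and CRY proteins, together with output factors such as DBP and TEF. Glucocorticoids from the adrenal gland act on the same organ within an hour, switching on genes of glucose release and several clock genes. Heat shock factor 1 drives chaperone genes when proteins unfold, and interferons drive a set of antiviral genes.

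Signals were deposited as quantile-normalised intensities, so every array held nearly the same distribution. The median signal of the 16 liver arrays lay between 120.26 and 120.48, and the share of probes above the detection limit (a signal of 117.4, or 6.875 on the log2 scale) between 52.81% and 53.02%. A transcript is 1 probe of the array, and 17987 probes passed that limit on at least 2 liver arrays. Regulated transcripts are those that changed at least 1.5-fold with a limma p below 0.01 after Benjamini-Hochberg adjustment. Differences are given as log2 values with the standard error (SE) of the fit. The 2 exposed arrays correlated with r = 0.9872, and 1.93% of transcripts differed between them by at least 1.5-fold. Between exposed and control arrays r lay between 0.9698 and 0.9756, and 4.94% to 6.63% of transcripts differed that much. Among the controls, mouse 1 stood furthest from the others, with r of 0.985 and 0.981 against 0.991 for mice 2 and 3. Of the 13 kept hepatocyte markers none was regulated, and their summed signal was 171127 to 191279 after exposure and 186132 to 188662 in the controls. Among the markers of 11 other cell types and tissues only the transferrin receptor Tfrc, on the erythroid list, was called. That call was lost without any one of the 5 mice. Sums for exocrine pancreas, most of whose enzymes were below the limit, were 769 to 775 after exposure and 1040 to 1250 in the controls. Of its 5 kept members 4 read lower, with a median difference of -0.095. Cela1 differed by -1.12 and Cela2a by 0.11, and neither was called.

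In the exposed liver 122 transcripts were upregulated and 65 downregulated, which is 0.678% and 0.361% of those tested. They belong to 102 named genes that rose and 53 that fell, with 8 unnamed probes in each direction. Rises were also larger, since 64 of the upregulated transcripts changed at least 2-fold and 14 at least 4-fold, against 24 and 3 of the downregulated ones. The median difference over all tested transcripts was 0.0025. Exposed and control arrays did not overlap for any of the 187 called transcripts, while 33% of all tested transcripts did not overlap. Exposed mouse 2 had the higher signal for 85 of the 122 upregulated transcripts and the lower one for 44 of the 65 downregulated ones. The number of calls depended on each mouse, and it was 33 without exposed mouse 2, 119 without exposed mouse 1, and 137, 91 and 114 without control mouse 1, 2 or 3.

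**Figure D1:**
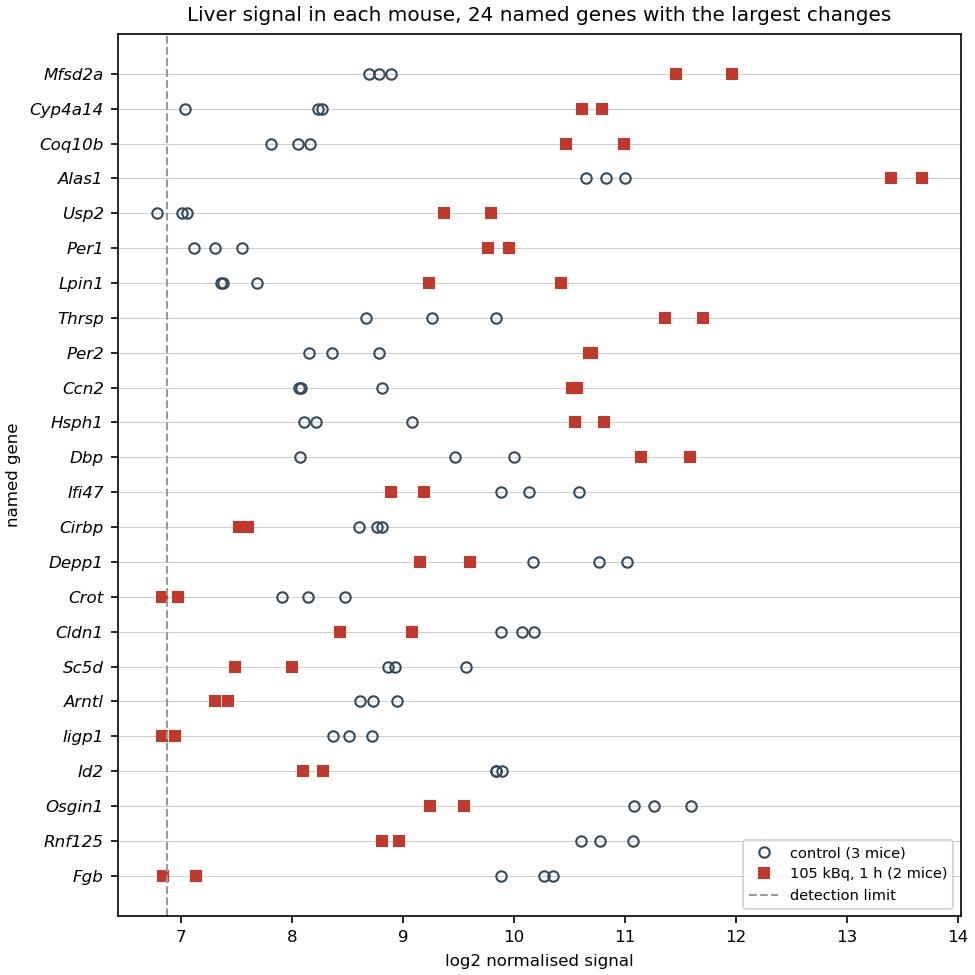
Log2 normalised signal (x axis) of the 12 regulated named genes with the largest rise and the 12 with the largest fall (y axis), each by its probe of largest change, in each of the 2 exposed mice (filled squares) and 3 control mice (open circles), with the detection limit as a dashed line and second or unnamed probes not drawn. Exposed and control mice do not overlap in any row, which was a condition of the choice, and Fgb, Crot and Iigp1 lie at the detection limit after exposure.

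The largest rises joined a lipid transporter, a fatty acid hydroxylase, a mitochondrial coenzyme Q protein and the first enzyme of heme synthesis. Mfsd2a, a membrane transporter of lysophosphatidylcholine, read 11.46 and 11.96 in the exposed mice and 8.69, 8.89 and 8.78 in the controls. It rose by 2.92 (SE 0.14), or 7.57-fold, with a limma adjusted p of 2.58e-08. Coq10b, a protein that binds coenzyme Q in mitochondria, read 10.46 and 10.99 against 8.06, 8.16 and 7.81, and rose 6.57-fold (2.72, SE 0.17, limma adjusted p = 3.1e-07). Both exposed mice lay far above all controls for these transcripts, and both calls stood without any one mouse. A second Coq10b probe rose by 2.40, and another, near the detection limit, differed by 0.13.

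Alas1, which catalyses the first and rate-limiting step towards heme, was already abundant and read 13.40 and 13.68 after exposure against 11.002, 10.83 and 10.64. Its rise was 6.55-fold (2.71, SE 0.16, limma adjusted p = 3.1e-07). Of 13 kept genes of heme synthesis and breakdown no other was regulated, beside 0.678% of all transcripts upregulated and 0.361% downregulated. The median difference of the list was -0.05. Ferrochelatase (Fech), which inserts the iron, differed by -0.43, and heme oxygenase 1 (Hmox1), which breaks heme down, by -0.22.

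Ccn2, a matricellular protein also known as connective tissue growth factor, read 10.52 and 10.57 against 8.06, 8.08 and 8.81. It rose 4.68-fold (2.23, SE 0.38, limma adjusted p = 0.00433), a call that was lost without either exposed mouse or control mouse 1 or 2. St3gal5, the sialyltransferase that makes the ganglioside GM3, rose 3.93-fold (1.98, SE 0.23, limma adjusted p = 0.000232). Its 2 exposed values of 9.96 and 10.55 lay above the controls at 7.97, 8.41 and 8.46, and a second probe differed by 1.36 without passing the threshold. The St3gal5 call was lost without exposed mouse 2.

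The clock genes held the highest share of regulated members. Of 18 kept genes 8 rose and 1 fell, beside 0.678% and 0.361% of all transcripts. The median difference of the list was 0.60 against 0.0025 over all transcripts. Exposed and control mice did not overlap for 13 of the 18, against the 33% background. Summed signal of the list was 17370 to 18074 after exposure and 8359 to 9718 in the controls.

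Among the inhibitors of the clock, Per1 read 9.76 and 9.95 in the exposed mice and 7.11, 7.54 and 7.30 in the controls. It rose 5.80-fold (2.54, SE 0.18, limma adjusted p = 1.7e-06), and its second probe rose by 1.34. Per2 read 10.67 and 10.70 against 8.36, 8.15 and 8.78 and rose 4.78-fold (2.26, SE 0.22, limma adjusted p = 4.6e-05). The 2 exposed mice were close to each other for both genes and well apart from every control. Per3 rose by 0.66 (SE 0.12), from 6.77 to 6.95 in the controls, where 1 of 3 arrays lay below the detection limit, to 7.48 and 7.58. Ciart (Chrono), a repressor of CLOCK and ARNTL, read 8.56 and 9.12 against 7.20, 6.78 and 7.01, with 1 control array below the limit. It rose by 1.85 (SE 0.18, limma adjusted p = 5.81e-05), and a second probe, below the limit in all controls, was at least 3.28-fold higher.

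The output factor Dbp read 11.58 and 11.14 against 8.07, 9.46 and 9.999, so the controls were spread widely with mouse 1 lowest. Its rise was 4.54-fold (2.18, SE 0.39, limma adjusted p = 0.00624) and was lost without either exposed mouse or control mouse 2. Tef rose 2.30-fold (SE 0.18 on the log2 scale), a call lost without either exposed mouse. A second Tef probe, with means below the detection limit, differed by 0.13. Hlf, the relative of Dbp and Tef, differed by -0.25. Usp2, a deubiquitinating enzyme with a daily rhythm, read 9.37 and 9.79 against 6.78, 7.00 and 7.05 and rose 6.20-fold (2.63, SE 0.23, limma adjusted p = 1.94e-05). Its lowest control lay below the detection limit, and 2 further probes differed by 0.48 and 0.27 without passing the threshold.

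Noct, a phosphatase of the clock output, read 11.61 and 11.88 against 10.79, 9.48 and 9.51, with control mouse 1 above the other controls. It rose by 1.81 (SE 0.34), and its second probe differed by 1.40 without passing the threshold. The Noct call was lost without either exposed mouse or control mouse 2 or 3. Arntl was the clock gene that fell: it read 7.42 and 7.31 against 8.94, 8.61 and 8.73, which is 2.63-fold lower (-1.40, SE 0.13, limma adjusted p = 4.6e-05). Its partner Clock differed by -0.10, and Nr1d1 (REV-ERB alpha), a repressor of Arntl, differed by -0.56 with overlapping groups. Without either exposed mouse 4 clock genes rose and 1 fell, and without control mouse 1, 2 or 3 the rises numbered 7, 5 and 7 beside 1 fall.

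E-boxes, the letters CACGTG, were searched in the RefSeq promoters of the GRCm38.p6 build, from 250 bases before to 50 after each start. A promoter was found for 7 of the 8 clock genes that rose, and 3 of them held an E-box, as did 10.8% of all 9843 promoters of genes kept in the liver. Those of Per1 and Ciart are shown as examples for genes that rose, and Per3 for the D-box TTATGTAA, the site of DBP and TEF. Capitals mark the motifs, and each stretch reads 5′ to 3′ on the strand of the gene.

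Per1, chr11:69098749-69098848, plus strand: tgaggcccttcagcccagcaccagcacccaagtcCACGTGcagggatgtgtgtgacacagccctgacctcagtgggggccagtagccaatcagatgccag
Ciart, chr3:95882259-95882368, minus strand: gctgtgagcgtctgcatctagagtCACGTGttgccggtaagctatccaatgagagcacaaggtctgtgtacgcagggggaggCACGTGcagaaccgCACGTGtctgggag
Per3, chr4:151044796-151044885, minus strand: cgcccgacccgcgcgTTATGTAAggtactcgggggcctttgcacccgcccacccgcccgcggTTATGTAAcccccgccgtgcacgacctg

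Counted from the transcription start, the single Per1 E-box began at position -166, and Ciart held 3, at -116, -58 and -44. The 2 D-boxes of Per3 began at -205 and -158. D-boxes stood in 3 of 84 promoters of all genes that rose and in 0.925% of the promoters of genes kept in the liver. A match is a description of the letters and not evidence of binding.

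Genes of the glucocorticoid response rose in part. Of 20 kept genes 5 were upregulated and none was downregulated, beside 0.678% and 0.361% of all transcripts. In the list 17 of 20 read higher, beside 9099 of all 17987 transcripts, and the median difference was 0.73. Per1 belongs to this list as well as to the clock. Tsc22d3 (GILZ), a leucine zipper protein that mediates anti-inflammatory effects of glucocorticoids, read 12.17 and 11.92 against 10.13, 10.01 and 10.51. It rose 3.54-fold (1.83, SE 0.32, limma adjusted p = 0.00573), and a second probe differed by 0.95 without passing the threshold. Fkbp5, a co-chaperone that dampens the receptor, read 9.44 and 10.19 against 7.95, 8.12 and 8.19 and rose 3.32-fold (1.73, SE 0.30, limma adjusted p = 0.00569). Exposed and control mice were apart for both, yet both calls were lost without exposed mouse 2 or control mouse 1 or 2, that of Tsc22d3 also without exposed mouse 1 and that of Fkbp5 also without control mouse 3.

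Errfi1, an inhibitor of the epidermal growth factor receptor, rose 1.97-fold (0.98, SE 0.11, limma adjusted p = 0.00023) from an already high level, 13.60 and 13.48 against 12.48, 12.80 and 12.41. That call and the one of Angptl4 stood without any one mouse. Further targets read higher in both exposed mice without passing the threshold, among them Igfbp1 (1.70, limma adjusted p = 0.0628) and the phosphatase Dusp1 (1.40, limma adjusted p = 0.0429). The metallothioneins Mt1 and Mt2 differed by 0.32 and -0.11. Called members numbered 3 or 4 without any one mouse, and the list median lay between 0.43 without exposed mouse 2 and 1.01 without exposed mouse 1.

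Lipid genes of fasting and of PPAR alpha, the fatty acid receptor of the liver, were regulated at a few members. Of 28 kept genes 5 rose, Mfsd2a among them, and none fell, beside 0.678% and 0.361% of all transcripts. The median difference was 0.24. Cyp4a14, a fatty acid omega-hydroxylase, read 10.61 and 10.79 against 7.04, 8.27 and 8.23. Its 7.23-fold rise (2.85, SE 0.56) was just within the threshold at a limma adjusted p of 0.00976, and it was lost without any one of the 5 mice. Angptl4, an inhibitor of lipoprotein lipase, read 10.62 and 11.65 against 9.31, 9.57 and 9.42 and rose 3.26-fold (1.71, SE 0.22, limma adjusted p = 0.000558).

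The lipid droplet proteins Plin4 and Plin5 rose as well. Plin4 read 8.49 and 8.76 in the exposed mice, while all 3 controls lay below the detection limit, so it was at least 3.37-fold higher (limma adjusted p = 0.000178). Plin5 read 9.54 and 10.56 against 8.79, 8.76 and 8.70 and rose by 1.30 (SE 0.21), with a second probe at 0.33 that did not pass. The Plin5 call was lost without exposed mouse 2 or control mouse 2 or 3. Enzymes of mitochondrial fatty acid oxidation were not among the regulated genes: Cpt1a, which admits fatty acids, differed by -0.50, Acadm by 0.33 and Acadl by -0.01. Without exposed mouse 2 the list median was 0.03 and 3 members were called.

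In fatty acid and triglyceride synthesis 3 of 20 kept genes rose and none fell, with a median of 0.27, beside 0.678% and 0.361% of all transcripts called. Lpin1, a phosphatidate phosphatase and transcriptional coactivator, read 9.24 and 10.42 against 7.36, 7.37 and 7.68, which is 5.13-fold higher (2.36, SE 0.39, limma adjusted p = 0.00343). The exposed mice differed by more than 2-fold between themselves and both stayed above the controls. A second Lpin1 probe, near the detection limit, differed by 0.12. Thrsp (Spot 14), a regulator of lipogenesis, read 11.36 and 11.70 against 8.66, 9.26 and 9.83 and rose by 2.27 (SE 0.37). Dgat2, which makes triglyceride, rose by 0.70 (SE 0.13). None of the 3 was called without exposed mouse 2 or control mouse 1, and 1, 1 and 2 list members were called without exposed mouse 1, control mouse 2 or control mouse 3. The list median was 0.15 without exposed mouse 1, 0.54 without exposed mouse 2 and 0.16 without control mouse 1. Of 6 kept adipose tissue markers 5 read higher and none was called, with a median of 0.37 that was -0.10 without exposed mouse 1 and 0.77 without exposed mouse 2. Their summed signal was 7487 to 8339 after exposure and 6043 to 8888 in the controls, with Plin1, Retn and Fabp4 below the detection limit. Among the kept markers Adipoq differed by 1.62 without a call, and by 0.03 to 3.21 when 1 mouse was left out. The part of adipose tissue in the lipid genes was not tested.

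In glucose and amino acid metabolism 2 of 22 kept genes rose and none fell, with a median of 0.49, beside 0.678% and 0.361% of all transcripts called. G6pc, the glucose-6-phosphatase that releases glucose, read 12.44 and 13.06 against 11.40, 11.40 and 11.19 and rose 2.67-fold (1.42, SE 0.19, limma adjusted p = 0.000762). Gpt2, an alanine aminotransferase, rose by 0.93 (SE 0.12). Pck1, the other rate-limiting enzyme of gluconeogenesis, differed by 0.93 with a limma adjusted p of 0.0804. Ppp1r3c, which targets a phosphatase to glycogen, differed by -1.04 without passing. The calls of G6pc and Gpt2 ended without exposed mouse 2, where the list median was 0.30.

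Several cytosolic chaperones rose. Of 22 kept genes 6 were upregulated and none was downregulated, beside 0.678% and 0.361% of all transcripts. In the list 18 of 22 read higher, beside 9099 of all 17987 transcripts, and the median was 0.46. Their summed signal was 42243 to 44962 after exposure and 23295 to 28075 in the controls. Hsph1 (HSP110), a nucleotide exchange factor of HSP70, read 10.55 and 10.81 against 9.07, 8.10 and 8.22 and rose 4.64-fold (2.21, SE 0.32, limma adjusted p = 0.00121). Chordc1, a co-chaperone of HSP90, read 10.48 and 10.39 against 9.26, 9.19 and 9.04 and rose 2.40-fold (1.27, SE 0.16, limma adjusted p = 0.000373). In both genes control mouse 1 was the highest of the controls and lay more than 2-fold below the exposed mice.

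The abundant constitutive chaperone Hspa8 (HSC70) read 14.40 and 14.42 against 13.50, 13.21 and 13.09 and rose by 1.14 (SE 0.13). A second Hspa8 probe differed by 1.04 without passing the threshold. Dnajb1 (HSP40) rose by 1.04 (SE 0.09), the HSP70-HSP90 adaptor Stip1 by 1.22 (SE 0.15) and Ahsa2, an activator of HSP90, by 0.62 (SE 0.09). The inducible Hspa1a, below the limit in all controls, differed by 0.17, Hsp90aa1 by -0.02 and the mitochondrial pair Hspd1 and Hspe1 by 0.15 and 0.11, and none of these was called. All 6 calls stood without exposed mouse 1 or any control, and 3 stood without exposed mouse 2. In the endoplasmic reticulum Herpud1, a part of protein quality control, rose 2.82-fold (SE 0.18 on the log2 scale). None of the other 20 kept stress genes was called, beside 0.678% of all transcripts upregulated and 0.361% downregulated. The chaperone Hspa5 (BiP) differed by -0.34.

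The heat shock element was searched as 3 units of GAA and TTC in turn, each 2 bases after the last. It stood in 2 of the 5 promoters found for the chaperone genes that rose and in 0.559% of the promoters of genes kept in the liver. Both are printed with the element in capitals.

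Chordc1, chr9:18292227-18292296, plus strand: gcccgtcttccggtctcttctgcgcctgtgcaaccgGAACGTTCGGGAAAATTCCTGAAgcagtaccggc
Hsph1, chr5:149636286-149636355, minus strand: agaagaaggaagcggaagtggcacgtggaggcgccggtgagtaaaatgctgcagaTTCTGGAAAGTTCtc

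In Chordc1 3 overlapping matches ran from position -4 to 19. In Hsph1 the match ran from 16 to 28. Promoters of the other chaperone genes found held no match in these letters.

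**Figure D2:**
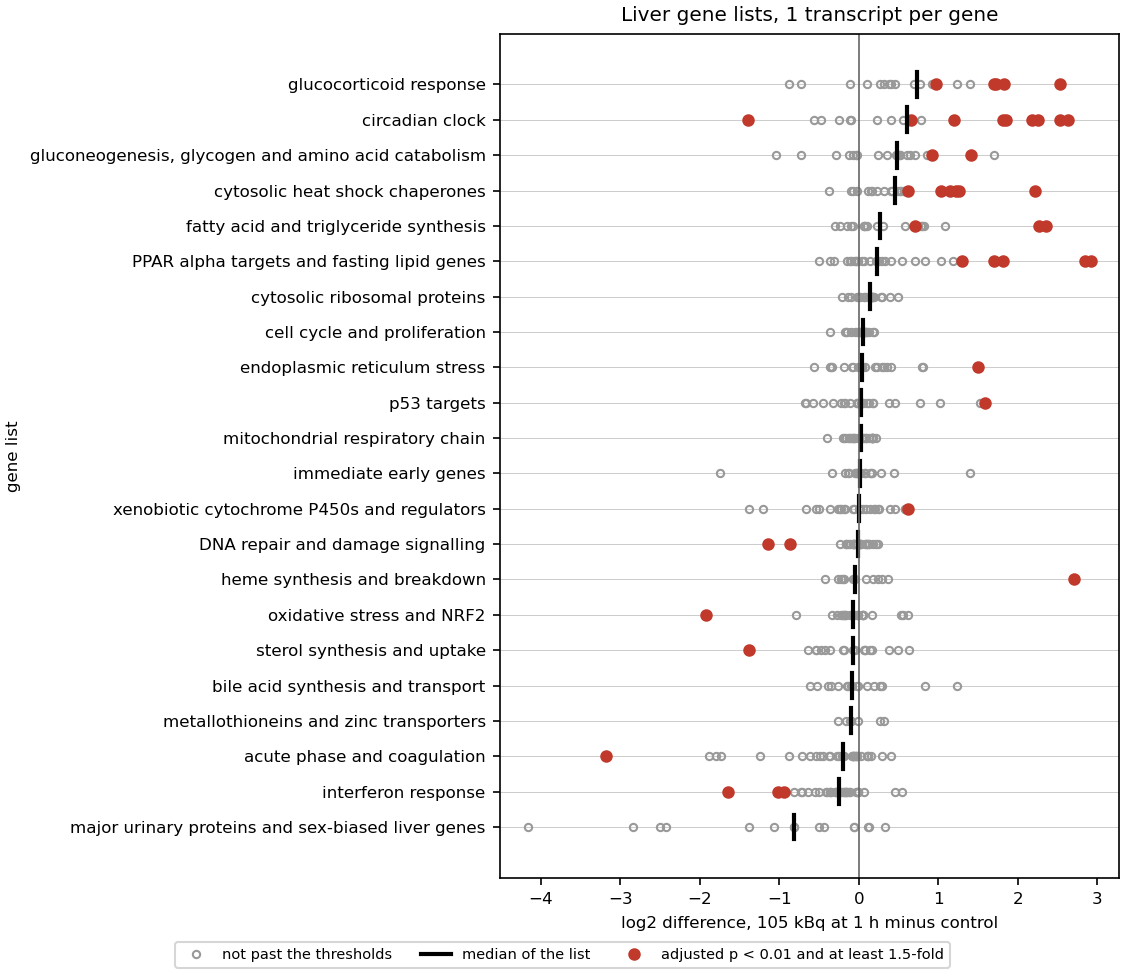
Log2 difference of 105 kBq at 1 h minus control (x axis) for the kept genes of 22 lists (y axis, ordered by median), with regulated genes in red, other genes in grey and the list median as a black bar. Glucocorticoid and clock lists have the highest medians, 0.73 and 0.60, and the list of major urinary proteins the lowest, -0.81, with no gene called.

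Among regulated named genes the largest falls were those of a fibrinogen chain, a ubiquitin ligase and a stress-response gene, and 2 unnamed probes were also downregulated (-2.37 and -2.17). Fgb, the beta chain of fibrinogen, read 6.84 and 7.13 in the exposed mice, with 1 of 2 arrays above the detection limit, and 10.27, 9.88 and 10.35 in the controls. The difference was -3.18 (SE 0.51, limma adjusted p = 0.00305), with the exposed level at the detection limit. Its partner chains were not called, with Fga at 14.67 and 14.61 against 14.71, 14.64 and 14.67 (-0.03) and Fgg at 13.19 and 13.40 against 14.05, 13.93 and 13.75 (-0.61, limma adjusted p = 0.0358). The Fgb call ended without either exposed mouse or control mouse 3.

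Of 35 kept acute phase and coagulation genes Fgb was the only one called, beside 0.361% of all transcripts that fell. In the list 28 of 35 read lower, beside 8888 of all 17987 transcripts. The median was -0.19 (-0.13 without exposed mouse 1 and -0.08 without control mouse 1). Serum amyloids Saa1 and Saa2 differed by -1.89 and -1.80 with overlapping groups. In the list of major urinary proteins and sex-biased genes 12 of 15 read lower, the median was -0.81, and none was called. Mup20 read 7.20 and 8.93 against 11.22, 12.63 and 12.83 (-4.16, SE 1.30, limma adjusted p = 0.0871). The albumin probe read 8.80 and 9.62 against 12.26, 11.83 and 12.42 (-2.96, SE 0.67, limma adjusted p = 0.0199). For both the exposed mice lay below every control, but the spread was too wide for a call, and major urinary protein genes are near-identical copies whose probes cannot be assigned to 1 gene with certainty.

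Rnf125, an E3 ubiquitin ligase, read 8.81 and 8.97 against 10.60, 10.77 and 11.07 and was 3.81-fold lower (-1.93, SE 0.19, limma adjusted p = 4.6e-05). A second probe fell by 1.79, and another, near the detection limit, differed by -0.28. Osgin1, an oxidative stress-induced growth inhibitor, read 9.54 and 9.24 against 11.59, 11.26 and 11.08 and was 3.78-fold lower (-1.92, SE 0.23, limma adjusted p = 0.000252). It was the only one of 27 kept NRF2 and oxidative stress genes that was called, beside 0.361% of all transcripts that fell. Nqo1, Gclm and Srxn1 differed by -0.08, -0.18 and -0.17.

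Id2, an inhibitor of basic helix-loop-helix factors, read 8.10 and 8.27 against 9.89, 9.84 and 9.84 and fell by 1.67 (SE 0.28), with its second probe lower by 1.34. Sc5d, a late enzyme of cholesterol synthesis, was the one gene of 19 in its list that was called (-1.38, SE 0.26). The median of that list was -0.07, and 0.361% of all transcripts were downregulated. Other large falls were those of the tight junction protein Cldn1 (-1.29, SE 0.20), the peroxisomal acyltransferase Crot (-1.28, SE 0.22), the autophagy regulator Depp1 (-1.27, SE 0.24) and the cold-inducible RNA-binding protein Cirbp (-1.17, SE 0.21). Of the largest falls, those of Id2, Sc5d and Cirbp were lost without any one of the 5 mice, while Rnf125 and Arntl stood throughout. The others depended on some of the mice, with Cldn1 lost without exposed mouse 2 or control mouse 2, Crot without either exposed mouse or control mouse 1 or 2, and Depp1 without either exposed mouse or control mouse 1 or 3. The Osgin1 call was lost without exposed mouse 2.

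Genes of the interferon response read lower. Of 36 kept genes 3 were downregulated and none was upregulated, beside 0.361% and 0.678% of all transcripts. In the list 33 of 36 read lower, beside 8888 of all 17987 transcripts, and the median was -0.25. Iigp1, an immunity-related GTPase, read 6.83 and 6.94, with 1 of 2 exposed arrays above the detection limit, against 8.37, 8.51 and 8.72, and fell by 1.65 (SE 0.27, limma adjusted p = 0.00358). Isg15, a ubiquitin-like modifier, read 7.79 in both exposed mice against 9.004, 8.86 and 8.57 and fell by 1.02 (SE 0.20). Psmb9, a subunit of the immunoproteasome, fell by 0.95 (SE 0.16), and Ifi47, a GTPase outside the list, by 1.16 (SE 0.19). The groups did not overlap for 17 of the 36, beside 33% of all transcripts.

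The Isg15 call was lost without any one of the 5 mice, that of Iigp1 without either exposed mouse or control mouse 2 or 3, and that of Psmb9 without either exposed mouse or control mouse 1 or 2. Markers of macrophages and Kupffer cells moved in the same direction, with 12 of 12 kept genes lower, none called, a median of -0.32, and summed signals of 7044 to 9333 after exposure and 8425 to 17051 in the controls. Without control mouse 1 the macrophage median was -0.02 and the interferon median -0.16, and without exposed mouse 2 they were -0.19 and -0.15. Neutrophil markers were lower for 10 of 12, but their summed signal was 6005 to 6650 after exposure and 3843 to 26435 in the controls, with S100a9 at 12.38 in control mouse 1 and 9.46 and 9.004 in the others. Without control mouse 1 the neutrophil list turned round, with 10 of 12 higher and a median of 0.24 in place of -0.30. Their part in the result was not tested.

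Isg15 carries 3 overlapping matches of the core of the interferon-stimulated response element, searched as 2 copies of GAAA 2 bases apart, from position -78 to -57. The core stood in 1 of 43 promoters of genes that fell and in 3.79% of the promoters of genes kept in the liver.

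Isg15, chr4:156200859-156200918, minus strand: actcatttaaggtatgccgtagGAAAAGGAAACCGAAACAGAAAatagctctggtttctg

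In the damage response 1 p53 target rose and 2 repair genes fell, beside 0.678% and 0.361% of all transcripts. Among 25 kept p53 targets the call was Plk3, a stress-responsive kinase, which read 9.79 and 10.60 against 8.86, 8.46 and 8.51 and rose 3.00-fold (1.59, SE 0.27, limma adjusted p = 0.00438). Cdkn1a (p21), the classical target, read 7.52 and 8.67 against 7.86, 7.09 and 7.03 (0.77, limma adjusted p = 0.274), so the groups overlapped. Mdm2 differed by -0.02 and Ccng1 by -0.10. Among 26 kept genes of DNA repair 2 fell: Mad2l2 (REV7), a subunit of polymerase zeta and of shieldin, by 1.14 (SE 0.14), and Mrnip, a partner of the MRE11 complex, by 0.87 (SE 0.15). The medians were 0.03 for the p53 targets and -0.003 for the repair genes. The Plk3 call was lost without exposed mouse 2 or control mouse 2 or 3, that of Mad2l2 without exposed mouse 2, and that of Mrnip without either exposed mouse or control mouse 2 or 3.

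No gene was called in several further lists. The 23 kept immediate early genes had a median of 0.01, with Fos at -0.03 and Jun at 0.15. Egr1 read 8.80 and 10.91 against 11.81, 11.78 and 11.22 (-1.75, SE 0.46, limma adjusted p = 0.0443), and its 2 exposed mice differed by more than 4-fold. The medians were 0.05 for 22 cell cycle genes, 0.15 for 22 ribosomal protein genes, 0.03 for 26 respiratory chain genes and -0.08 for 17 bile acid genes. Among 28 cytochrome P450 genes and their regulators only the xenobiotic receptor Nr1i2 (PXR) was called (0.63, SE 0.11). Of all transcripts 0.678% were upregulated. The Nr1i2 call was lost without exposed mouse 2 or any control.

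Whether the difference in activity left a trace at 1 h was tested by comparing 105 kBq directly with 1.7 kBq, a contrast with no control array in it. At the thresholds 1 transcript of 17987 differed, or 0.00556%, an unnamed probe that was higher at 105 kBq, and 1738 passed an unadjusted p of 0.05. That call was lost without 105 kBq mouse 1 or mouse 2 and without 1.7 kBq mouse 1 or mouse 3. The named genes of lowest p were Atf5, a stress-responsive transcription factor (-0.89, 95% interval -1.20 to -0.59), Zfp607a (-0.91, -1.24 to -0.58), Usp18, which removes ISG15 from proteins (0.68, 0.44 to 0.92), and the collagen chain Col6a1 (0.65, 0.41 to 0.90). None of the 4 passed after adjustment.

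Against the same controls 1.7 kBq gave 223 calls, 137 up and 86 down, which is 1.24% of the transcripts. Since the 2 comparisons share their 3 control arrays, their values are only set side by side. Mfsd2a rose by 2.92 at 105 kBq and 3.23 at 1.7 kBq, Alas1 by 2.71 and 2.78, and Per1 by 2.54 and 2.19. Of the 187 transcripts called at 105 kBq 105 were also called at 1.7 kBq. The direct difference was under 2-fold over its whole 95% interval for 168 of the 187 and at least 1.5-fold for 16.

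**Figure D3:**
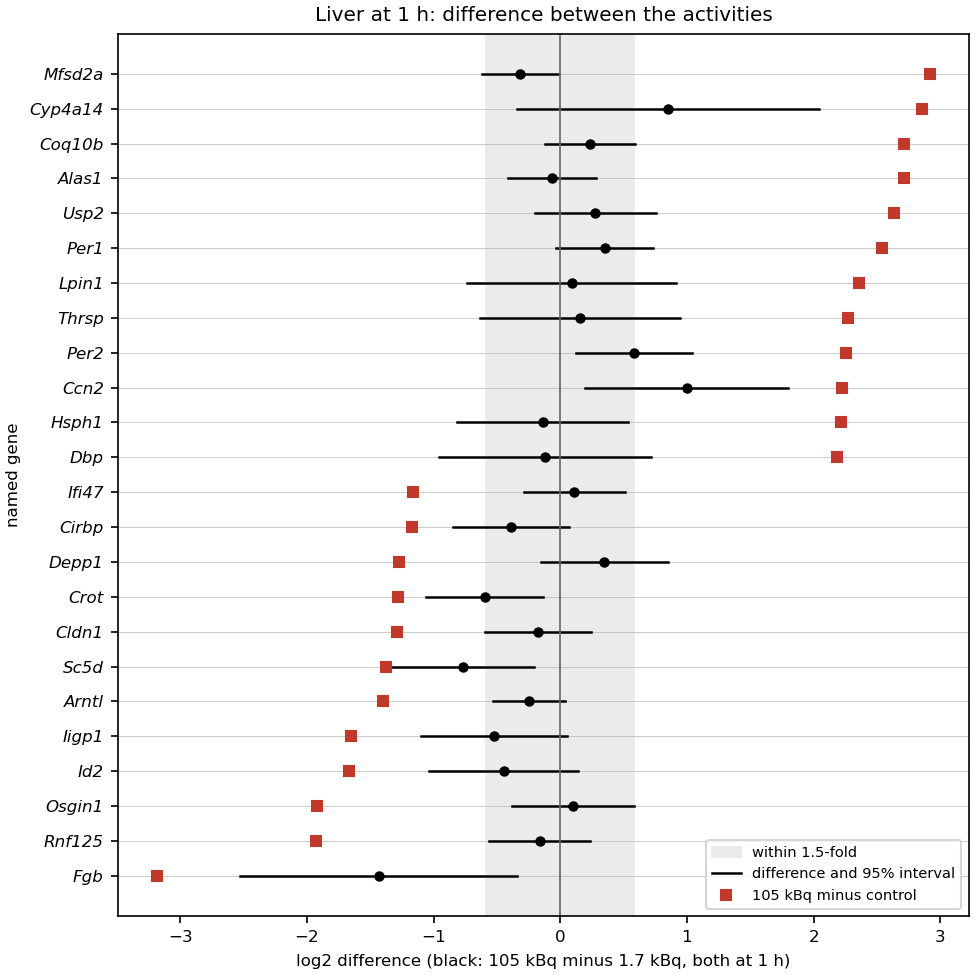
Log2 differences (x axis) for the 24 regulated named genes with the largest changes, 1 probe each (y axis), with 105 kBq minus control as red squares and 105 kBq minus 1.7 kBq, both at 1 h, as black points with 95% intervals, and changes within 1.5-fold shaded. The intervals exclude 0 for 6 of the 24, and the smallest limma adjusted p among the 24 is 0.391.

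Of the 24 regulated named genes with the largest changes, taken by 1 probe each, 16 had an interval within 2-fold and 6 an interval that excluded 0, before any adjustment. Those 6 were Per2 (0.58, 95% interval 0.12 to 1.04), Ccn2 (1.00, 0.20 to 1.80), Fgb (-1.43, -2.52 to -0.34), Sc5d (-0.77, -1.33 to -0.21), Crot (-0.59, -1.06 to -0.13) and Mfsd2a (-0.31, -0.61 to -0.02). For the first 5 the change from control was larger at 105 kBq, and for Mfsd2a it was smaller. The 24 were picked by their change in the same 105 kBq arrays, a choice that favours the larger change at 105 kBq. Intervals as wide as that of Cyp4a14 (0.85, -0.34 to 2.04) show that a 2-fold effect of activity could have gone unseen for single genes.

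The study chose 105 kBq over 1 h and 7.5 kBq over 6 h to give the thyroid an equal absorbed dose, so activity and time differ together here. In the liver 0 transcripts of 17987 passed the thresholds between these groups, or 0%, with 965 at an unadjusted p below 0.05 and a smallest limma adjusted p of 0.124. Among the genes called against control, Stip1 was higher at 105 kBq by 0.91, Hsph1 by 1.09, Tfrc by 1.19 and Cyp4a14 by 1.33. Fgb differed by -0.005, and it read 6.91 and 7.07 at 6 h after 7.5 kBq. With 2 mice in each group these differences have no call.

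The liver difference from control was set against the mean difference in kidney cortex, kidney medulla, lungs and spleen, in 1 fit of 25 arrays. It shows where the liver departed from that mean, not whether a change was absent elsewhere. Tissues of a mouse are not independent, and the labels do not tie arrays of different tissues to 1 mouse. The difference passed the thresholds for 211 of 18985 transcripts, or 1.11%, with 73 above and 138 below the other tissues (0.385% and 0.727%). Among the 187 transcripts called in the liver 87 passed, of which 49 had risen and 38 had fallen. The 187 were selected by the same liver difference that enters this test, so a high share and matching directions are partly built in. Of the 138 below the other tissues 35 were under the detection limit on all 20 arrays of those tissues, and so were 4 of the 38 that had fallen in the liver.

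**Figure D4:**
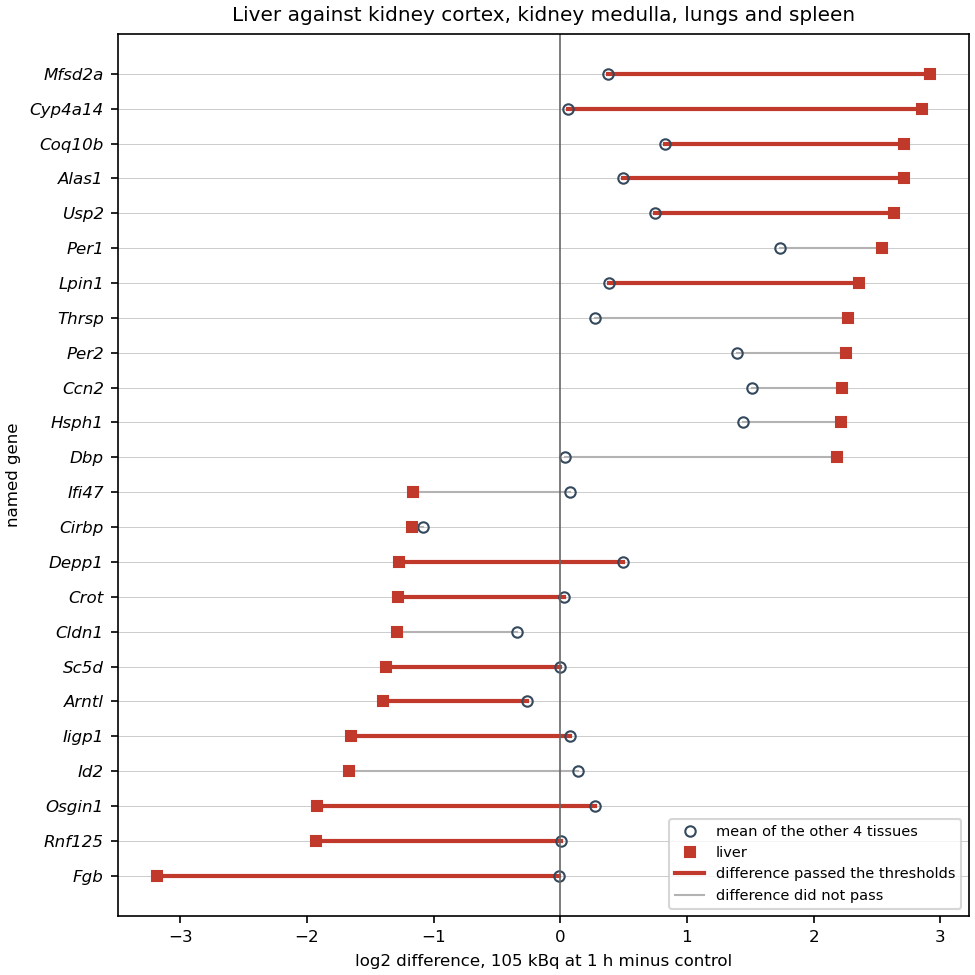
Log2 difference of 105 kBq at 1 h minus control (x axis) for the 24 regulated named genes with the largest changes in the liver, 1 probe each (y axis), as filled squares for the liver and open circles for the mean of 4 other tissues, joined by a red line where their difference passed the thresholds and a grey one where it did not. It passed for 14 of the 24, 6 of them higher and 8 lower in the liver, and the 24 were chosen by the liver difference that enters it.

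The named genes furthest above the other tissues included Mfsd2a and Alas1. Mfsd2a rose by 2.92 in the liver and 0.37 on average elsewhere, a difference of 2.54 (SE 0.35). Alas1 differed from the other tissues by 2.22, Lpin1 by 1.98, Coq10b by 1.89 and Usp2 by 1.89. Against control Coq10b differed by 1.29 in kidney cortex, 0.98 in medulla, 0.86 in lungs and 0.18 in spleen. In the same order Usp2 differed by 1.38, 1.08, 0.68 and -0.15, and Alas1 by 0.98, 1.06, 0.16 and -0.22. Lpin1 differed by 0.66, 0.46, 0.36 and 0.05. These genes thus read higher than control in both kidney tissues as well. Cpox, a later enzyme of heme synthesis, differed in the other direction (-1.06), but was not called in the liver against control (-0.91). It exceeded the detection limit on 11 of 20 arrays of the other tissues, at no more than 7.46. Falls that differed were those of Osgin1 (-2.19), Rnf125 (-1.94), Iigp1 (-1.73) and Arntl (-1.14). Osgin1 and Arntl were above the detection limit on all 20 arrays of the other tissues, and Rnf125 and Iigp1 on 14 of 20, at no more than 7.89 and 7.39. Fgb was below the limit on all 20, so it could not fall there, and its difference of -3.17 restates the liver value.

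The 2 Per genes and several glucocorticoid targets did not differ from the other tissues at the thresholds. Per1 rose by 2.54 in the liver and 1.74 on average elsewhere (difference 0.80, SE 0.24, limma adjusted p = 0.0799), and Per2 by 2.26 and 1.40 (limma adjusted p = 0.0775). Tsc22d3 differed from the others by -0.49 and Fkbp5 by -0.07. Cirbp fell by 1.17 in the liver and differed from the others by -0.08. Dbp, at 2.18 in the liver and 0.04 elsewhere, had a difference of 2.15 that did not pass.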

How the data were processed

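RNA from individual mouse tissues was hybridised to Illumina MouseRef-8 BeadChips. Per the study's methods, technical triplicates were run, images were quantified with Illumina software, and the signals were quantile-normalised in BASE. The authors deposited 1 normalised intensity per probe, mouse and tissue (25697 probes, 80 arrays), with no count of beads, so precision rests on the number of mice. A second deposited table of 80 non-normalised signal columns was not used, because its names do not match the sample labels. Symbols came from the platform annotation, updated by gene ID through RefSeq (23978 probes named, 1719 unnamed).

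Intensities were taken as log2, and probes above 117.4 (mode of all signals plus 2.33 background SD) on at least 2 liver arrays were kept. All 16 liver arrays were fitted as 6 group means with limma 3.58.1 in R 4.3.3, two-sided, with Benjamini-Hochberg adjustment over all kept probes. Thresholds were those of the methods. The fit was tested on simulated data. A gene with several probes is represented in lists by the brightest one and elsewhere by the probe with the largest change. Named genes were the 12 largest rises and falls among regulated transcripts whose groups did not overlap. Further ones were called list members, the leading genes of the other comparisons, and genes the study names for the liver. Members and lists were chosen with earlier results of these data known. P-values reflect the spread between single mice.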

Additional observations from a re-analysis of the deposited data

Results flagged for a closer look

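A difference between the liver and the mean of the other 4 tissues was found by the interaction test in limma for 28 of 107 named transcripts, 14 above and 14 below, all at an adjusted p of 0.00645 or lower. Over all 18985 transcripts 1.11% passed. Some of the 107 were named because they led this same test, and others for large changes in the liver. The share of 28 in 107 is therefore partly fixed by the choice. Above the other tissues were Cyp4a14 (2.79), Mfsd2a (2.54), Alas1 (2.22), St3gal5 (2.01), Lpin1 (1.98), Coq10b (1.89), Usp2 (1.89), Tfrc (1.34), Ciart (1.33), Plin5 (1.23), Gpt2 (1.198), Slco1a4 (0.86), Hspa8 (0.81) and Nr1i2 (0.70). Below them were Mup20 (-4.13), Mup2 (-3.81), Fgb (-3.17), Alb (-3.03), H2-K1 (-2.48), Osgin1 (-2.19), Rnf125 (-1.94), Depp1 (-1.77), Iigp1 (-1.73), Cyp3a41a (-1.41), Sc5d (-1.38), Crot (-1.31), Mad2l2 (-1.29) and Arntl (-1.14). Cyp3a41a, Fgb and Slco1a4 were below the detection limit on all 20 arrays of the other tissues, and Alb, Mup20 and Mup2 were above it on 1, 3 and 5 of 20, so for these 6 the difference largely restates the liver value. Crot, Iigp1, Rnf125, Sc5d and Mad2l2 read no more than 7.08, 7.39, 7.89, 7.31 and 7.73 there. Crot, Iigp1, Rnf125 and Sc5d exceeded the limit of 6.875 on 8, 14, 14 and 19 of 20 arrays. Signals so near the limit left little room for a fall as large as in the liver. Of the 28, Slco1a4, Mup20, Mup2, Alb, H2-K1 and Cyp3a41a were not called in the liver against control itself. The H2-K1 probe differed by -1.74 in the liver and by 0.75 on average in the other tissues. A second, brighter H2-K1 probe differed by only -0.26 in the liver. The groups of 2 and 3 mice are too small for a test of single outlying samples.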

How the results depend on the processing

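Against control the 187 calls became 82 after background subtraction (65 up, 17 down, a larger share of rises), 119 with only the arrays of the 2 groups (54 up, 65 down), 384 at an adjusted p below 0.05, 131 without a filter on dim probes and 198 with the replicate number as a block, and leaving out 1 mouse gave 33 to 137. No label says what a replicate number marks. Same-numbered deviations from the group means correlated with a mean of 0.047 (-0.23 to 0.33), which cannot tell whether a number marks a shared day or batch. The 1 call against 1.7 kBq became 0 without the filter, after background subtraction, with only the arrays of the 2 groups and with the replicate block, and 0 to 2 without 1 mouse. The 0 calls against 7.5 kBq became 4 with only the arrays of the 2 groups and 1 with the replicate block, and 0 to 1 without 1 mouse. The 211 calls against the other tissues became 354 at an adjusted p below 0.05 and 149 to 208 without 1 mouse. Of 54 named genes called against control, 16 kept their call without any one mouse. Against control, direction turned for 6 uncalled genes: Serpina4-ps1 (-0.18) became 0.011 with the replicate block and lay between -0.46 and 0.088 without 1 mouse, 0.0008 without control mouse 3. Leaving out 1 mouse gave -0.39 to 1.32 for Hba-a1, -0.47 to 1.11 for Mt1, -0.76 to 0.22 for Acta2, -1.16 to 0.054 for Marco and -1.20 to 0.49 for S100a9. The cause of these shifts was not tested. Slides were not used as a block, since no label ties samples to slides. The list counts without single mice were added after seeing the data. With 2 exposed mice the counts moved with each mouse left out, and the exposed levels of Fgb, Iigp1 and Crot lie at the detection limit.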

Other observations

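Several membrane transporters, picked here after their values were seen and not tested as a group, were among the upregulated transcripts. The cationic amino acid transporter Slc7a2 rose by 1.22, the glutamine carrier Slc38a2 by 0.94, the aromatic amino acid transporter Slc16a10 by 0.73 and the multivitamin transporter Slc5a6 by 0.86. The mitochondrial carriers Slc25a25 and Slc25a32 rose by 1.44 and 0.68. Transcription factors among the rises, also picked after the fact, were Cebpb (1.11) and Foxo1 (1.07), which drive gluconeogenic genes. Tfrc, the transferrin receptor, rose by 1.28 and 1.41 on its 2 probes, and Hspa2, an HSP70 family member best known from germ cells, by 1.49. The call of the Tfrc probe at 1.28 and that of Slc5a6 were lost without any one of the 5 mice.

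Adipoq, the adipocyte hormone adiponectin, read 10.003 in exposed mouse 1 and 6.82 in exposed mouse 2, against 6.70 to 6.84 in the controls, all of which lay below the detection limit.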
